A study of Homo sapiens with 18 samples.

Results

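ES8 is an established Ewing sarcoma cell line, and the data described here are its transcriptome after silencing of *DNAJC17* against a control guide. Of the 18 libraries of the series, 6 were compared, 3 from parental ES8 cells with a non-targeting sgRNA (sgCTL) and 3 from parental ES8 cells with an sgRNA against *DNAJC17* (sgDNAJC17), each with replicates A, B and C. All 6 came from cells that carry dCas9-KRAB, a nuclease-dead Cas9 fused to a transcriptional repressor, so that the guide silences the gene it binds (CRISPRi). Cells received the guide by lentivirus, spent 72 h in puromycin and were grown in RPMI-1640 with serum, and polyadenylated RNA was sequenced. Each arm rests on 1 guide, the sgRNA against *DNAJC17* lies at the 5' end of the gene, and the methods state triplicate plating without saying whether the wells were transduced separately, so the p-values measure the spread between these libraries, which may be technical. Of 57500 genes in the tables, 17143 had enough counts to be tested, 13879 of them protein coding. The groups used for comparison are ES8 cells that stably express a *DNAJC17* allele without its RNA recognition motif (ΔRRM) and also received sgDNAJC17, and parental Rh30 cells, a rhabdomyosarcoma line, with sgCTL or sgDNAJC17, each group with 3 replicates.

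*DNAJC17* encodes a J-domain protein, a co-chaperone of HSP70, that also holds an RNA recognition motif and is found with the PRP19 complex of the spliceosome. The spliceosome removes introns through the ordered exchange of small nuclear ribonucleoproteins, of which U4, U5 and U6 join as a preassembled unit and the PRP19 complex then holds the catalytic core together. Genes with many introns pass through this machinery many times, and single-exon genes do not need it. Ewing sarcoma cells are driven by the fusion transcription factor EWSR1-FLI1.

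The 6 libraries held 36004616 to 44814879 counts on genes, and levels are given as CPM, which are counts scaled to library size after TMM normalization. Summed levels of 6 Ewing sarcoma markers were 683 to 701 CPM with sgCTL and 717 to 731 CPM with sgDNAJC17. The higher sum came from *CD99*, while 4 of the 6 markers had lower means with sgDNAJC17. The 4 immune markers summed to 0.951 to 1.38 CPM with sgCTL and 0.779 to 1.19 CPM with sgDNAJC17. The 6 epithelial markers summed to 38.3 to 40.9 CPM with sgCTL and 37.6 to 44.9 CPM with sgDNAJC17. The 6 rhabdomyosarcoma markers summed to 118 to 119 CPM with sgCTL and 81.7 to 102 CPM with sgDNAJC17, with 2 of 6 at 0 in all 6 libraries, against 2450.0 to 2534 CPM in Rh30 with sgCTL. The ES8 sum and its fall came nearly all from *FGFR4* (100.9 to 104 CPM with sgCTL and 67.3 to 84.4 CPM with sgDNAJC17), and the muscle genes *MYOG* and *MYF6* were at 0. The sgDNAJC17 replicate A stood apart from B and C on the second principal component, which held 21.1% of the variance. Its difference from B and C had a Spearman correlation of 0.75 with GC content across 13879 protein-coding genes, which are not independent replicates. The biological coefficient of variation was 0.115 among the sgDNAJC17 libraries and 0.0370 among the sgCTL libraries. Counts are therefore also given without replicate A.

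*DNAJC17* (ENSG00000104129, chr15:40765155-40807478, minus strand, GRCh38) held 559, 583 and 625 counts with sgCTL and 59, 77 and 67 counts with sgDNAJC17, or 12.4, 13.9 and 13.7 CPM against 1.74, 2.14 and 1.69 CPM. The groups did not overlap, and the log2 fold change was -2.84 (SE 0.12, adjusted p = 9.59e-06). Of its exonic bases, 26.1% are shared with other genes, and reads on those bases cannot be parted. *ZFYVE19*, an abscission checkpoint gene that runs head to head with *DNAJC17* from position 40807086 on the plus strand, so that their annotated 5' ends overlap, had 20.7, 23.2 and 20.97 CPM with sgCTL, 10.00, 9.68 and 9.74 CPM with sgDNAJC17 and 11, 14 and 12.2 CPM in ΔRRM cells, which also carry sgDNAJC17. It fell by 1.15 on the log2 scale (SE 0.086, adjusted p = 9.31e-05). *GCHFR*, the feedback regulator of GTP cyclohydrolase, rose in all 3 libraries, with a log2 fold change of 0.51 (SE 0.086, adjusted p = 0.00253), and 75.2% of its exonic bases are shared with other genes. *C15orf62* and *SPINT1*, the other tested genes that start within 50 kb, had log2 fold changes of 0.37 (adjusted p = 0.193) and -0.65 (adjusted p = 0.247). In ΔRRM cells, *DNAJC17* reads reached 337, 312 and 348 CPM, which include those of the transgene.

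Across all genes tested, 2336 rose (13.6%) and 2365 fell (13.8%) at an adjusted p under 0.05, and 285 (1.66%) and 49 (0.286%) did so at least 2-fold. The median log2 fold change of all genes tested was -0.016. Among protein-coding genes, 1994 rose (14.4%) and 2216 fell (16.0%), with a median log2 fold change of 0.38 and -0.40. Thus 96.7% of the protein-coding calls were smaller than 2-fold. At least 2-fold, 115 protein-coding genes rose (0.829%) and 24 fell (0.173%). Without replicate A, 3444 protein-coding genes rose and 3804 fell, 143 and 45 of them at least 2-fold. These are 24.5% and 27.1% of the protein-coding genes tested in that fit. They held 1975 of the 1994 and 2204 of the 2216 called with all 6 libraries. Of the 139 genes past 2-fold, 13 were also past 2-fold in the same direction in Rh30, 64 had too few counts there to be tested, and 23 had a mean of at least 100 counts per ES8 library (19 up and 4 down). The 139 genes had a median of 25 counts per library, so most of the large folds rest on few reads.

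**Figure D1:**
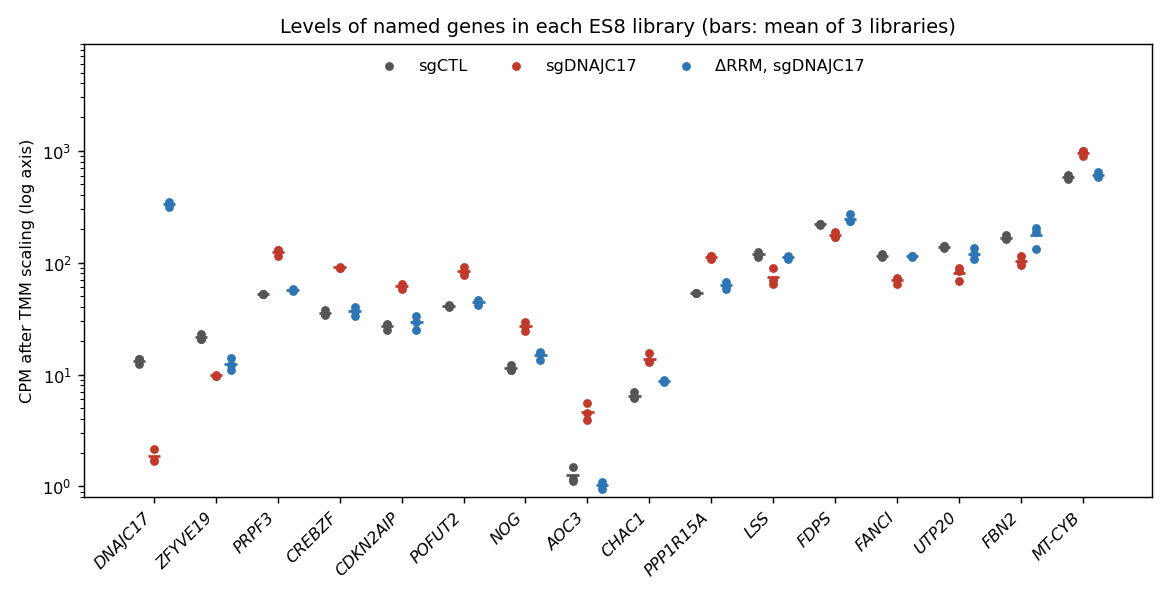
Levels of 16 genes in each ES8 library, in CPM on a log axis, with 1 point per library and a bar at the mean of 3 libraries for sgCTL, sgDNAJC17 and ΔRRM cells. Beside *DNAJC17* and *ZFYVE19*, the genes were chosen for a called change. That the sgDNAJC17 points lie apart from the sgCTL points for every gene shown is therefore no separate result. *ZFYVE19* is low in both groups that carry sgDNAJC17.

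Beyond the genes past 2-fold in both ES8 and Rh30, the well-covered genes that rose included regulators of splicing, transcription and the circadian clock. Some of these moved the same way in Rh30 by less than 2-fold. The log2 fold changes there were 0.90 for *CREBZF* and 0.58 for *PRPF3*. *PRPF3* (chr1:150321476-150353195, plus strand), a protein of the U4/U6 small nuclear ribonucleoprotein, had 52.4, 52.2 and 52.2 CPM with sgCTL and 115, 129 and 131 CPM with sgDNAJC17. This gave a log2 fold change of 1.25 (SE 0.070, adjusted p = 2.75e-05). In ΔRRM cells it had 56.8, 58.1 and 55.8 CPM, which lies above the sgCTL range and far below the knockdown. *CREBZF* (chr11:85659708-85682908, minus strand), a basic leucine zipper protein, had 34.99, 34.2 and 37.7 CPM with sgCTL and 92.4, 89.3 and 90.3 CPM with sgDNAJC17. On the log2 scale, the change was 1.34 (SE 0.063, adjusted p = 9.92e-06). Genes named by fold or p were required not to overlap between the groups. A gap wider than the range within either group, seen for both genes, is therefore no separate result. *CDKN2AIP*, whose protein binds ARF and p53, rose from 27.03 ± 1.68 to 61.5 ± 2.86 CPM (SD, n = 3), which is a log2 fold change of 1.18 (adjusted p = 5.38e-05).

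*POFUT2*, a protein O-fucosyltransferase, had 41.3, 41.98 and 40.5 CPM with sgCTL and 91.9, 81.9 and 78.3 CPM with sgDNAJC17. Its log2 fold change was 1.02 (adjusted p = 6.11e-05). *NOG*, the secreted BMP antagonist noggin and a single-exon gene, had 12.2, 11.01 and 11.1 CPM and 29.2, 24.7 and 26.9 CPM. In log2 terms, it changed by 1.23 (adjusted p = 8.80e-05). The clock repressors *CIART* and *PER2* rose from 3.72 ± 0.343 to 8.87 ± 0.620 CPM and from 4.44 ± 0.802 to 9.40 ± 0.220 CPM (SD, n = 3 each), by 1.25 (adjusted p = 0.000194) and 1.08 (adjusted p = 0.000605) on the log2 scale. The neighbouring amine oxidase genes *AOC3* and *AOC2* rose from 1.17, 1.12 and 1.49 to 4.57, 3.92 and 5.51 CPM and from 1.44, 1.28 and 1.64 to 5.22, 3.84 and 4.10 CPM, by 1.88 (adjusted p = 0.000237) and 1.58 (adjusted p = 0.000299). Their coding sequences are alike, so reads may be split between them. Coverage was judged by the mean count of both groups together, so a gene low with sgCTL can qualify through its sgDNAJC17 counts. The sgCTL levels of *AOC3* and *AOC2* rest on fewer reads than their sgDNAJC17 levels. *ZNF350*, a zinc finger repressor, rose by 1.33 (adjusted p = 0.000149), *MOK*, a MAP kinase-like kinase, by 1.36 (adjusted p = 0.000279), and *PDRG1* by 1.01 (adjusted p = 5.38e-05). *CHAC1*, which degrades glutathione, rose by 1.09 (adjusted p = 0.000243), and the single-exon gene ENSG00000282936, which has no symbol, by 1.33 (adjusted p = 0.000237). *CMYA5*, a muscle gene named after its values were seen, had the largest fold among these but only 16, 15 and 32 counts with sgCTL, 109, 148 and 201 with sgDNAJC17 and 21, 21 and 20 in ΔRRM cells, a log2 fold change of 3.12 (adjusted p = 0.000183).

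Few genes that were well covered by the mean count of both groups together fell 2-fold. Their sgDNAJC17 levels rest on fewer reads than their sgCTL levels. Beside *DNAJC17* and *ZFYVE19*, *CERKL*, a ceramide kinase-like gene, had 4.65, 4.90 and 4.50 CPM with sgCTL and 1.27, 2.75 and 2.71 CPM with sgDNAJC17. The log2 fold change was -1.05 (SE 0.23, adjusted p = 0.00841). *TEX15*, a germ cell gene, had 6.18, 5.61 and 7.32 CPM and 2.18, 3.20 and 3.89 CPM. This gave a log2 fold change of -1.04 (SE 0.19, adjusted p = 0.00399). In both genes replicate A was the lowest library, and without it the log2 fold changes were -0.77 (adjusted p = 8.58e-06) and -0.84 (adjusted p = 3.22e-07), under 2-fold.

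**Figure D2:**
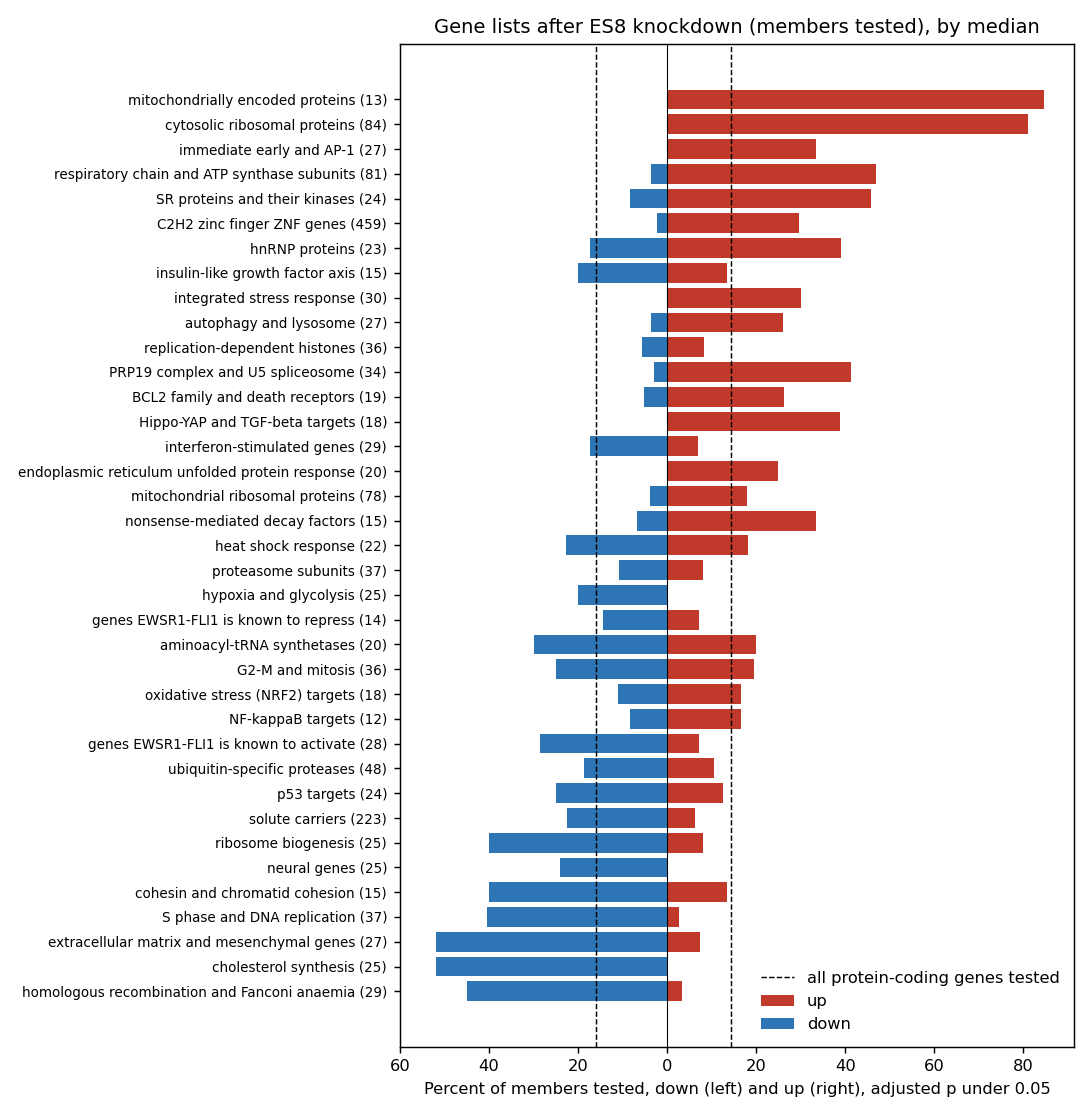
Share of the tested members of 37 gene lists that fell (left, blue) or rose (right, red) at an adjusted p under 0.05, with the lists ordered by median log2 fold change and dashed lines at 14.4% up and 16.0% down, the shares over all protein-coding genes tested. Mitochondrially encoded and cytosolic ribosomal protein genes stand at the top, and Fanconi anaemia, cholesterol and matrix genes at the bottom.

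Part of the splicing machinery rose. Its counts are read beside 14.4% up and 16.0% down over all protein-coding genes (24.5% and 27.1% without replicate A). In the list of PRP19 complex and U5 spliceosome genes, 14 rose and 1 fell of 34 tested (20 and 4 without replicate A), with a median log2 fold change of 0.12. *PRPF3* belongs to this list, and *DDX23*, a helicase of the U5 particle, had 363, 367 and 370.1 CPM with sgCTL and 577, 517 and 525 CPM with sgDNAJC17. On the log2 scale, the change was 0.55 (SE 0.053, adjusted p = 0.000239). *PRPF19* and *CDC5L*, subunits of the PRP19 complex, had log2 fold changes of 0.095 (adjusted p = 0.316) and 0.031 (adjusted p = 0.832, 0.00753 to 0.984 over the alternatives, passing without sgDNAJC17 A or with the GC and length correction), and *SNRNP200*, the helicase that unwinds U4 from U6, of -0.19 (adjusted p = 0.0528, 1.69e-10 to 0.170 over the alternatives, passing without sgDNAJC17 A, with the GC and length correction or with no filter). The member that fell was *EFTUD2*, the GTPase of U5, at -0.22 (adjusted p = 0.0243, 1.27e-11 to 0.0958 over the alternatives, not passing without any 1 sgCTL library or sgDNAJC17 B or C). Of SR proteins and their kinases, which mark exons, 11 rose and 2 fell of 24 tested (19 and 2 without replicate A), with a median log2 fold change of 0.19. *DYRK1A*, a kinase, and *SON*, a splicing cofactor of nuclear speckles, rose by 0.56 (adjusted p = 0.000279) and 0.43 (adjusted p = 0.000456), and the kinases *SRPK1* and *CLK2* fell, with log2 fold changes of -0.53 (adjusted p = 0.00210) and -0.24 (adjusted p = 0.0228, 0.000157 to 0.102 over the alternatives, not passing without any 1 sgCTL library or sgDNAJC17 C or with the replicate letter as a block). The kinase *CLK1* had 0.30 (adjusted p = 0.116, 0.000115 to 0.330 over the alternatives, passing without sgDNAJC17 A or with the GC and length correction). Of hnRNP genes, 9 rose and 4 fell of 23 tested (15 and 6 without replicate A), with a median log2 fold change of 0.15. Among these were *HNRNPA0*, a single-exon gene, up by 0.48 (adjusted p = 0.000313), *HNRNPH2*, up by 0.62 (adjusted p = 0.000279), and *HNRNPA3*, down at -0.37 (adjusted p = 0.00618). Of nonsense-mediated decay factors, 5 rose and 1 fell of 15 tested (6 and 3 without replicate A), with a median log2 fold change of 0.055. Among these were the exon junction gene *MAGOHB* up by 0.45 (adjusted p = 0.00247) and the kinase *SMG1*, which has 63 exon blocks (the exons left when those of all its transcripts are merged), down at -0.48 (adjusted p = 0.00178, 8.81e-13 to 0.0836 over the alternatives, not passing with all 9 ES8 libraries in the fit).

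Some stress genes of the ATF4 branch rose. In the integrated stress response, kinases that sense stress slow translation and let ATF4 be made, which then binds the C/EBP-ATF response element. Of its genes, 9 rose and 0 fell of 30 tested (13 and 4 without replicate A), with a median log2 fold change of 0.14. All protein-coding genes had 14.4% up and 16.0% down (24.5% and 27.1% without replicate A). *PPP1R15A*, the subunit that reverses the pathway and one of the genes shared with Rh30, had 53, 53.8 and 53.5 CPM with sgCTL and 114, 108 and 114 CPM with sgDNAJC17. Its log2 fold change was 1.06 (SE 0.057, adjusted p = 2.36e-05). *ATF4* had 342, 351 and 345 CPM and 612, 546 and 555 CPM. In log2 terms, it changed by 0.72 (SE 0.054, adjusted p = 9.34e-05). *DDIT3*, which encodes CHOP, rose by 0.52 (adjusted p = 0.00159), and *ASNS*, the asparagine synthetase, had 0.077 (adjusted p = 0.348, 0.0129 to 0.651 over the alternatives, passing without sgDNAJC17 A or with the GC and length correction) with groups that overlapped.

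RefSeq promoter windows (GRCh38.p14) were found for 25 of the 30 genes, and the 250 bases before the start were searched on both strands for TGATGNAA, the core of that element. It was found in 5 of them and in 2.37% of 21443 promoters of protein-coding genes. The windows are shown since they let the motif be set beside the change of each gene, with the motif in capitals.
CHAC1 (chr15:40953253-40953278, plus strand): cccctgccgTTGCATCActcctgcca
ATF3 (chr1:212565207-212565232, plus strand): aggtcaggaTGATGGAAggctgtcat
JDP2 (chr14:75427997-75428021, plus strand): agccggggcTGATGCAAcccgtccc
ASNS (chr7:97872460-97872485, minus strand): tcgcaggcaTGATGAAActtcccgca
CEBPG (chr19:33374062-33374087, plus strand): cgcggcgtcTGATGCAAcctgccggc
*CHAC1* carries the motif on the opposite strand to the gene and lies on the chromosome of *DNAJC17*, 145 kb from its start. *CHAC1*, *ATF3* and *JDP2* rose, with log2 fold changes of 1.09 (adjusted p = 0.000243), 0.44 (adjusted p = 0.00687) and 0.25 (adjusted p = 0.0367). *ASNS* and *CEBPG*, which also hold the motif, had 0.077 (adjusted p = 0.348) and 0.0079 (adjusted p = 0.958).

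Of the unfolded protein response of the endoplasmic reticulum, 5 rose and 0 fell of 20 tested (8 and 3 without replicate A), with a median log2 fold change of 0.071. The shares over all protein-coding genes were 14.4% up and 16.0% down (24.5% and 27.1% without replicate A). The chaperone *HSPA5* (BiP) had 546, 543 and 560.2 CPM with sgCTL and 714, 707 and 680.1 CPM with sgDNAJC17. The log2 fold change was 0.34 (adjusted p = 0.00104), and *HERPUD1* and *XBP1* rose by 0.65 (adjusted p = 0.000597) and 0.50 (adjusted p = 0.000610). Of genes of the heat shock response, driven by HSF1, a share near that of all protein-coding genes passed in each direction with all 6 libraries. Without replicate A, both shares were above those of all protein-coding genes. Of these, 4 rose and 5 fell of 22 tested (10 and 8 without replicate A), with a median log2 fold change of 0.041. *HSPA8*, the constitutive HSP70, had 2576, 2525 and 2579 CPM with sgCTL and 2107, 2094 and 2065 CPM with sgDNAJC17. This gave a log2 fold change of -0.30 (SE 0.045, adjusted p = 0.00149), and *HSPE1*, the mitochondrial co-chaperonin, fell at -0.37 (adjusted p = 0.000853). The inducible HSP70 gene *HSPA1A* had 33.9, 33.6 and 35.9 CPM and 46.4, 37.4 and 40.2 CPM. On the log2 scale, the change was 0.26 (adjusted p = 0.0459, 0.00878 to 0.156 over the alternatives, not passing without any 1 sgCTL library or sgDNAJC17 C, with all 9 ES8 libraries in the fit or with the replicate letter as a block). *HSPA1B* is nearly identical to *HSPA1A*, so reads may be split. Named after its values were seen, *HSPA1B* moved the other way, from a mean of 39.6 to 35.7 CPM. Its log2 fold change was -0.16 (adjusted p = 0.149), so a rise of the pair is uncertain. *DNAJA1*, an HSP70 co-chaperone, rose by 0.37 (adjusted p = 0.00205), and *DNAJB1* had 0.088 (adjusted p = 0.325).

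Many genes of DNA replication and repair fell. Their counts are read beside 14.4% up and 16.0% down over all protein-coding genes (24.5% and 27.1% without replicate A). Of S phase genes, 1 rose and 15 fell of 37 tested (4 and 25 without replicate A), with a median log2 fold change of -0.22. *CDC45*, part of the replicative helicase, had 65.5, 64.2 and 62.8 CPM with sgCTL and 46.7, 42.05 and 40.4 CPM with sgDNAJC17. Its log2 fold change was -0.58 (SE 0.068, adjusted p = 0.000523). *RFC4*, a clamp loader subunit, fell at -0.49 (adjusted p = 0.00104), the member that rose was *CDT1*, a licensing factor, at 0.30 (adjusted p = 0.0195, 1.30e-05 to 0.0944 over the alternatives, not passing without any 1 sgCTL library), and *GINS1*, a helicase subunit, had -0.012 (adjusted p = 0.939). Of homologous recombination and Fanconi anaemia genes, which repair breaks and crosslinks, 1 rose and 13 fell of 29 tested (2 and 15 without replicate A), with a median log2 fold change of -0.32. Their median against sgCTL was -0.56, -0.24 and -0.19 in sgDNAJC17 replicates A, B and C, lowest in A. *FANCI* had 114, 112 and 121 CPM with sgCTL, 63.8, 72.2 and 72.03 CPM with sgDNAJC17 and 115, 113 and 116 CPM in ΔRRM cells. In log2 terms, it changed by -0.74 (SE 0.071, adjusted p = 0.000237). Its partner *FANCD2* fell at -0.55 (adjusted p = 0.000832) and *BRCA1* at -0.37 (adjusted p = 0.0309, 0.000220 to 0.116 over the alternatives, not passing without any 1 sgCTL library or sgDNAJC17 B), while *RPA2*, a single-strand binding subunit, rose by 0.31 (adjusted p = 0.00347). These genes have a median of 20 exon blocks, against 11 for all protein-coding genes tested.

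Replication genes are classic targets of E2F factors, and TTTCCCGC, the core of their site, was found on either strand in the 250 bases before the start of 8 of 32 S phase genes with a promoter window, against 1.73% of all promoters of protein-coding genes. The windows of all 8 are given, with the motif in capitals.
LIG1 (chr19:48170442-48170467, minus strand): ttcacccctTTTCCCGCcctcctccc
MCM7 (chr7:100101568-100101593, minus strand): gctcggaccGCGGGAAAcccggcgcc
MCM3 (chr6:52284900-52284925, minus strand): gatggtacgTTTCCCGCcaccgcggg
GINS2 (chr16:85688969-85688994, minus strand): ctcgccgtgGCGGGAAAacggcggcc
CDT1 (chr16:88803745-88803770, plus strand): agggcgcccGCGGGAAAtttggcggg
PCNA (chr20:5126665-5126690, minus strand): gcgtcagggGCGGGAAAaggcgtgcg
RFC3 (chr13:33818085-33818110, plus strand): ttggagctcGCGGGAAAacttgtctc
TYMS (chr18:657605-657630, plus strand): gggacggccGCGGGAAAaggcgcgcg
*LIG1*, the replicative DNA ligase, had a log2 fold change of -0.42 (adjusted p = 0.00264), the helicase subunits *MCM7* and *MCM3* of -0.26 (adjusted p = 0.0170) and -0.25 (adjusted p = 0.00794), and *GINS2* of -0.24 (adjusted p = 0.0114), while *CDT1*, with the same letters, moved the other way. The clamp *PCNA*, the clamp loader subunit *RFC3* and the thymidylate synthase *TYMS* had -0.15 (adjusted p = 0.0605, 2.05e-05 to 0.214 over the alternatives, passing without sgDNAJC17 A or with the GC and length correction), -0.17 (adjusted p = 0.217, 0.0270 to 0.399 over the alternatives, passing with the GC and length correction) and -0.072 (adjusted p = 0.410, 0.00476 to 0.753 over the alternatives, passing without sgDNAJC17 A or with the GC and length correction). These genes were named for the motif, after their values were seen.

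Of G2-M and mitosis genes, 7 rose and 9 fell of 36 tested (15 and 13 without replicate A), with a median log2 fold change of -0.034. This list and the next are read beside 14.4% up and 16.0% down over all protein-coding genes (24.5% and 27.1% without replicate A). *PKMYT1*, a kinase that holds CDK1 inactive, had 74.4, 81.9 and 73.2 CPM with sgCTL and 55.1, 44.3 and 42.01 CPM with sgDNAJC17. The log2 fold change was -0.71 (adjusted p = 0.000935), and the checkpoint kinase *BUB1B* fell at -0.43 (adjusted p = 0.00217). *BIRC5* (survivin) and *PLK1* rose, by 0.41 (adjusted p = 0.000768) and 0.27 (adjusted p = 0.0101, 3.43e-07 to 0.0621 over the alternatives, not passing without sgCTL B or C), while *CCNB1* and *CDK1*, the mitotic cyclin and its kinase, had 0.12 (adjusted p = 0.117, 0.00102 to 0.322 over the alternatives, passing without sgDNAJC17 A) and -0.24 (adjusted p = 0.233, 0.0134 to 0.421 over the alternatives, passing with the GC and length correction or with no filter). Of cohesin genes, 2 rose and 6 fell of 15 tested (5 and 6 without replicate A), with a median log2 fold change of -0.21, and the median was 0.061 without replicate A. *CDCA5* (sororin) rose by 0.48 (adjusted p = 0.000437), and *ESPL1* (separase) fell at -0.45 (adjusted p = 0.000824). Of p53 targets, 3 rose and 6 fell of 24 tested (6 and 8 without replicate A), with a median log2 fold change of -0.085. Among these were *TP53INP1* up by 0.52 (adjusted p = 0.00439), *FAS* down at -0.48 (adjusted p = 0.00879), and the defining genes *CDKN1A* and *MDM2* at -0.28 (adjusted p = 0.0735, 0.000140 to 0.213 over the alternatives, passing without sgDNAJC17 A or with the GC and length correction) and 0.10 (adjusted p = 0.532, 1.14e-06 to 0.966 over the alternatives, passing without sgDNAJC17 A or with the GC and length correction). Of the BCL2 family and death receptors, 5 rose and 1 fell of 19 tested (8 and 2 without replicate A), with a median log2 fold change of 0.10. Among these were the BH3-only genes *PMAIP1* (NOXA) and *BAD* up by 0.49 (adjusted p = 0.00244) and 0.49 (adjusted p = 0.00240).

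Genes of cholesterol synthesis fell or did not pass the test. The SREBP2 transcription factor sets the level of these enzymes together. Of the list, 0 rose and 13 fell of 25 tested (2 and 20 without replicate A), with a median log2 fold change of -0.30. The shares over all protein-coding genes were 14.4% up and 16.0% down (24.5% and 27.1% without replicate A). *LSS*, lanosterol synthase, had 118, 125 and 113 CPM with sgCTL, 89.1, 64.1 and 70.01 CPM with sgDNAJC17 and 114, 107 and 113 CPM in ΔRRM cells. This gave a log2 fold change of -0.68 (SE 0.10, adjusted p = 0.00149). *FDPS*, farnesyl diphosphate synthase, had 215, 223 and 220.4 CPM, 187, 171 and 169 CPM and 234, 273 and 233 CPM in the same groups. On the log2 scale, the change was -0.33 (SE 0.055, adjusted p = 0.00258). For both genes all 3 sgDNAJC17 libraries lay below all 6 others. The median of the list was -0.23, -0.25 and -0.27 in sgDNAJC17 replicates A, B and C and 0.047, 0.079 and 0.014 in ΔRRM replicates A, B and C, each against the mean of the same 3 sgCTL libraries.

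Of solute carriers, the membrane transporters, 14 rose and 50 fell of 223 tested (21 and 86 without replicate A), with a median log2 fold change of -0.14. These counts stand beside 14.4% up and 16.0% down over all protein-coding genes (24.5% and 27.1% without replicate A). Among these were *SLC6A15*, a neutral amino acid transporter, down at -0.75 (adjusted p = 0.000994), *SLC29A1*, a nucleoside transporter, at -0.47 (adjusted p = 0.00119), and *SLC25A38*, a mitochondrial glycine carrier, up by 0.53 (adjusted p = 0.000584). Of hypoxia and glycolysis genes, 0 rose and 5 fell of 25 tested (3 and 10 without replicate A), with a median log2 fold change of -0.017. Among these were *PFKP*, a phosphofructokinase, and *VEGFA* at -0.50 (adjusted p = 0.00101) and -0.33 (adjusted p = 0.00255).

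The 13 protein genes of the mitochondrial genome have no introns, and most of them rose. Here 11 rose and 0 fell of 13 tested (13 and 0 without replicate A), with a median log2 fold change of 0.60. For all protein-coding genes the shares were 14.4% up and 16.0% down (24.5% and 27.1% without replicate A). *MT-CYB*, cytochrome b, had 592, 601 and 555 CPM with sgCTL, 992, 997 and 899 CPM with sgDNAJC17 and 612, 640.2 and 583 CPM in ΔRRM cells. Its log2 fold change was 0.72 (SE 0.059, adjusted p = 0.000143), and *MT-CO2* rose by 0.72 (adjusted p = 8.35e-05). Mitochondrially encoded genes took 1.48 to 1.73% of all counts with sgDNAJC17 and 1.10 to 1.13% with sgCTL, and in bulk RNA more transcript per cell, less of the other RNA and fewer cells of a type cannot be told apart. Of cytosolic ribosomal proteins, 68 rose and 0 fell of 84 tested (77 and 2 without replicate A), with a median log2 fold change of 0.34. Among these was *RPL22*, up by 0.46 (adjusted p = 0.000436). These genes have many near-identical copies in the genome, so their counts are less certain. Of nuclear respiratory chain and ATP synthase subunits, 38 rose and 3 fell of 81 tested (48 and 8 without replicate A), with a median log2 fold change of 0.20. Among these were *COX6C* up by 0.40 (adjusted p = 0.000907) and *ATP5MC1* down at -0.31 (adjusted p = 0.00736). Of mitochondrial ribosomal proteins, 14 rose and 3 fell of 78 tested (32 and 17 without replicate A), with a median log2 fold change of 0.062. The share that rose, 17.9%, is near that of all protein-coding genes. Among the genes that rose was *MRPL10*, up by 0.56 (adjusted p = 0.00139).

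Against sgCTL, the medians of ribosomal and respiratory chain genes were also positive in every ΔRRM library, least in replicate A and most in B. The medians of cytosolic ribosomal proteins were 0.44, 0.33 and 0.26 in sgDNAJC17 replicates A, B and C and 0.064, 0.35 and 0.13 in the ΔRRM replicates, and those of respiratory chain genes were 0.22, 0.20 and 0.11 and 0.016, 0.29 and 0.10. Mitochondrially encoded genes, at 0.49, 0.71 and 0.56 and 0.062, 0.11 and -0.14, did not overlap between the groups.

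**Figure D3:**
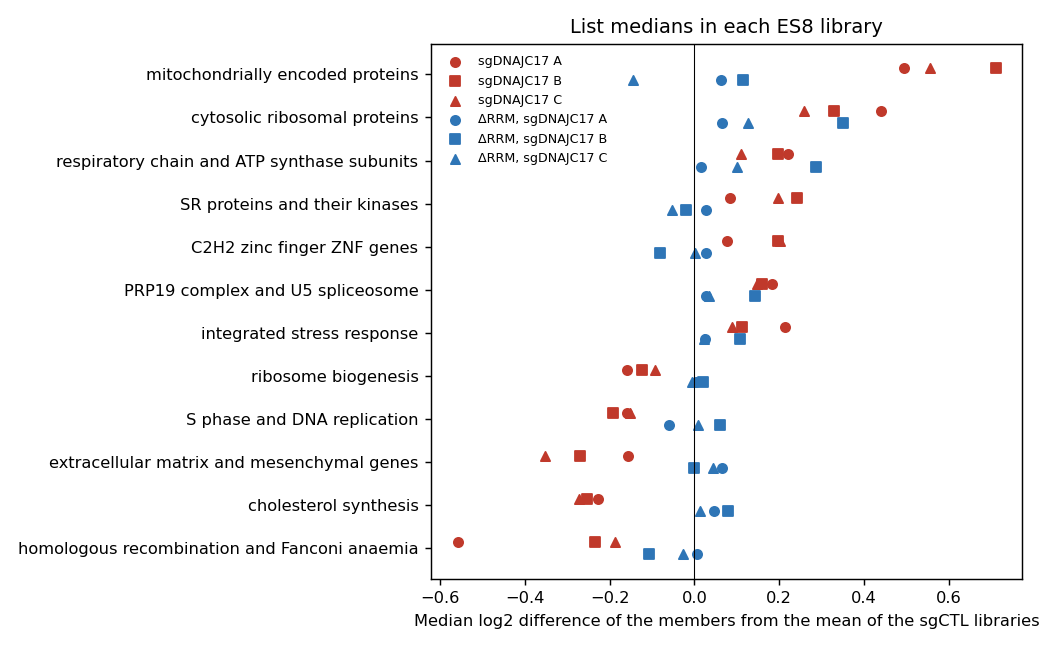
Median log2 difference of the members of 12 gene lists from the mean of the 3 sgCTL libraries, for each sgDNAJC17 library (red) and each ΔRRM library (blue), with the replicate as the symbol. Red and blue symbols overlap for cytosolic ribosomal protein, respiratory chain and integrated stress response genes, where ΔRRM replicate B lies among or above the red symbols. They do not overlap for the other lists shown.

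Among ribosome biogenesis genes, which build the ribosome in the nucleolus, 2 rose and 10 fell of 25 tested (4 and 12 without replicate A), with a median log2 fold change of -0.16. Beside the lists of this paragraph stand 14.4% up and 16.0% down over all protein-coding genes (24.5% and 27.1% without replicate A). *UTP20*, a processome component with 62 exon blocks, had 139.5, 135 and 141 CPM with sgCTL and 68.4, 84.7 and 88.8 CPM with sgDNAJC17. In log2 terms, it changed by -0.78 (SE 0.095, adjusted p = 0.000588), *PES1*, a large subunit factor, rose by 0.34 (adjusted p = 0.00440), and *NCL* (nucleolin) had -0.086 (adjusted p = 0.286). Of aminoacyl-tRNA synthetases, 4 rose and 6 fell of 20 tested (6 and 8 without replicate A), with a median log2 fold change of -0.032. Among these were *VARS1* and *IARS1*, which charge valine and isoleucine, at -0.50 (adjusted p = 0.00111) and -0.39 (adjusted p = 0.000658), and *WARS1* up by 0.24 (adjusted p = 0.0134, 6.04e-05 to 0.0854 over the alternatives, not passing without any 1 sgCTL library). Of proteasome subunits, 3 rose and 4 fell of 37 tested (6 and 7 without replicate A), with a median log2 fold change of 0.0077. Among these were *PSMD11* down at -0.37 (adjusted p = 0.00212) and *PSMD10* up by 0.42 (adjusted p = 0.00248). Of autophagy and lysosome genes, 7 rose and 1 fell of 27 tested (11 and 5 without replicate A), with a median log2 fold change of 0.13. The ATG8 family genes *MAP1LC3B* and *GABARAPL1*, which coat autophagosomes, rose by 0.66 (adjusted p = 0.000292) and 0.47 (adjusted p = 0.000770), and the cargo receptor *SQSTM1* had -0.16 (adjusted p = 0.0687, 1.11e-06 to 0.216 over the alternatives, passing without sgDNAJC17 A or with the GC and length correction). Of ubiquitin-specific proteases, 5 rose and 9 fell of 48 tested (10 and 14 without replicate A), with a median log2 fold change of -0.075. Among these were *USP39*, a splicing factor of this family, up by 0.44 (adjusted p = 0.000602) and *USP24*, with 71 exon blocks, down at -0.50 (adjusted p = 0.000525).

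Among extracellular matrix and mesenchymal genes, 2 rose and 14 fell of 27 tested (2 and 19 without replicate A), with a median log2 fold change of -0.24. Protein-coding genes as a whole had 14.4% up and 16.0% down (24.5% and 27.1% without replicate A). *FBN2*, fibrillin-2, had 166, 175 and 163 CPM with sgCTL, 115, 102 and 95.98 CPM with sgDNAJC17 and 204, 133 and 189.5 CPM in ΔRRM cells. The log2 fold change was -0.69 (SE 0.069, adjusted p = 0.000277). The collagens *COL5A2* and *COL1A1* fell at -0.42 (adjusted p = 0.000853) and -0.28 (adjusted p = 0.0373, 2.61e-11 to 0.131 over the alternatives, not passing without any 1 sgCTL library or sgDNAJC17 B or C), with overlapping groups for *COL1A1*, and the protease inhibitor *TIMP1* rose by 0.45 (adjusted p = 0.00388). Matrix genes are long, with a median of 30 exon blocks. Of genes that EWSR1-FLI1 is known to activate, 2 rose and 8 fell of 28 tested (2 and 13 without replicate A), with a median log2 fold change of -0.067. The orphan receptor *NR0B1* fell at -0.33 (adjusted p = 0.0190, 2.34e-12 to 0.0745 over the alternatives, not passing without any 1 sgCTL library or sgDNAJC17 B or C), the kinase *JAK1* at -0.41 (adjusted p = 0.000603) and *IL1RAP* at -0.49 (adjusted p = 0.00443). The surface protein *CD99* rose by 0.24 (adjusted p = 0.00565), and the transcription factor *NKX2-2* had 0.0076 (adjusted p = 0.941). Of genes it is known to repress, 1 rose and 2 fell of 14 tested (1 and 2 without replicate A), with a median log2 fold change of -0.024. Among these were *FOXO1* up by 0.30 (adjusted p = 0.0483, 0.00814 to 0.174 over the alternatives, not passing without any 1 sgCTL library or sgDNAJC17 B or C, with DESeq2, with all 9 ES8 libraries in the fit, with no filter or with the replicate letter as a block) and *IGFBP5* down at -0.49 (adjusted p = 0.000721). Of neural genes, 0 rose and 6 fell of 25 tested (1 and 8 without replicate A), with a median log2 fold change of -0.19. Among these was the adhesion molecule *NCAM1* at -0.51 (adjusted p = 0.000563). Of the insulin-like growth factor axis, on which Ewing sarcoma cells depend, 2 rose and 3 fell of 15 tested (5 and 5 without replicate A), with a median log2 fold change of 0.14. Among these were *IRS2*, an adaptor, up by 0.32 (adjusted p = 0.00781) and the receptor *IGF1R* at -0.020 (adjusted p = 0.839), and the median and the larger count differ in sign.

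Of immediate early and AP-1 genes, 9 rose and 0 fell of 27 tested (12 and 1 without replicate A), with a median log2 fold change of 0.28. Here too the counts are read beside 14.4% up and 16.0% down over all protein-coding genes (24.5% and 27.1% without replicate A). *FOSB* held only 19, 14 and 10 counts with sgCTL and 41, 38 and 55 with sgDNAJC17, a log2 fold change of 1.90 (SE 0.29, adjusted p = 0.00164), and *FOSL2* rose by 0.68 (adjusted p = 0.00169). The defining genes *JUN* and *EGR1* did not pass the test, with log2 fold changes of 0.16 (adjusted p = 0.184) and 0.062 (adjusted p = 0.832), and *FOS* and *MYC* had 0.24 (adjusted p = 0.0842, 0.0342 to 0.296 over the alternatives, passing without sgDNAJC17 A) and -0.055 (adjusted p = 0.506, 0.0171 to 0.781 over the alternatives, passing without sgDNAJC17 A or with the GC and length correction). Of Hippo-YAP and TGF-beta targets, 7 rose and 0 fell of 18 tested (7 and 1 without replicate A), with a median log2 fold change of 0.098. Among these were the angiomotin-like gene *AMOTL2* up by 0.74 (adjusted p = 0.000149) and *ID3*, an inhibitor of basic helix-loop-helix factors, by 0.56 (adjusted p = 0.000423). Of interferon-stimulated genes, 2 rose and 5 fell of 29 tested (6 and 10 without replicate A), with a median log2 fold change of 0.093. Among these were *OAS3* at -0.42 (adjusted p = 0.000935) and *B2M* up by 0.28 (adjusted p = 0.00723), and the median lay on the other side of 0 from the larger count. Of NF-kappaB targets, 2 rose and 1 fell of 12 tested (2 and 1 without replicate A), with a median log2 fold change of -0.062. Among these was the feedback inhibitor *NFKBIA* up by 0.54 (adjusted p = 0.00275). Of NRF2 targets, 3 rose and 2 fell of 18 tested (6 and 8 without replicate A), with a median log2 fold change of -0.056. Among these were ferritin light chain *FTL* up by 0.30 (adjusted p = 0.00468) and *HMOX1* at 0.27 (adjusted p = 0.0687, 0.0347 to 0.237 over the alternatives, passing without sgDNAJC17 A or B or with the GC and length correction), and here too the median and the larger count differ in sign.

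Replication-dependent histones lack poly(A) tails and are poorly sampled by this library type. Of these, 3 rose and 2 fell of 36 tested (3 and 3 without replicate A), with a median log2 fold change of 0.13. Among these were *H2BC21* up by 0.79 (adjusted p = 0.00104), and the median was -0.0084 without replicate A. The zinc finger genes named ZNF form the largest list. Of them, 136 rose and 10 fell of 459 tested (229 and 21 without replicate A), with a median log2 fold change of 0.16. Both lists stand beside 14.4% up and 16.0% down over all protein-coding genes (24.5% and 27.1% without replicate A). *ZNF212* and *ZNF317* rose by 0.96 (adjusted p = 0.000129) and 0.75 (adjusted p = 9.31e-05), and *ZNF512B* fell at -0.55 (adjusted p = 0.000597). These paralogs share repeats, so reads may be split among them.

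The direction of change varied with the number of exons, a pattern looked for after the data had been seen and given as a description. The median log2 fold change was 0.26 for protein-coding genes with 1 exon block, 0.042 for 7 to 10, -0.17 for 21 to 30 and -0.41 for over 50. Of 363 single-exon genes, 140 rose (38.6%) and 10 fell (2.75%). Of 175 genes with over 50 exon blocks, 4 rose (2.29%) and 107 fell (61.1%). Over all protein-coding genes, 14.4% rose and 16.0% fell. Genes that rose had a median of 7 exon blocks and those that fell 19. The difference between genes with over 20 exon blocks and those with up to 6 was -0.35, -0.28 and -0.25 in sgDNAJC17 replicates A, B and C. It ranged from -0.026 to 0.031 when each sgCTL library was set against the other two.

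The ΔRRM libraries did not behave alike. The same difference was -0.028, -0.27 and -0.081 in ΔRRM replicates A, B and C, so that replicate B reached the size seen after knockdown. Genes were also divided into 4 classes of exonic length with equal numbers of genes. In classes 1 to 4, counted from the shortest, the difference after knockdown was -0.43, -0.29, -0.27 and -0.30. That of ΔRRM replicate B was -0.14, -0.054, -0.049 and -0.045. Class 1 holds only 10 genes with over 20 exon blocks. Across protein-coding genes, the Spearman correlation with exon blocks was -0.35 for the knockdown and -0.35 for ΔRRM replicate B, and that with exonic length was -0.23 and -0.50. After a correction of each library for GC content and exonic length, the difference after knockdown was -0.20, and without replicate A it was -0.28. The part of RNA quality or of coverage along transcripts in this pattern was not tested. In Rh30, the medians were 0.13 for single-exon genes and -0.33 for over 50 exon blocks.

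**Figure D4:**
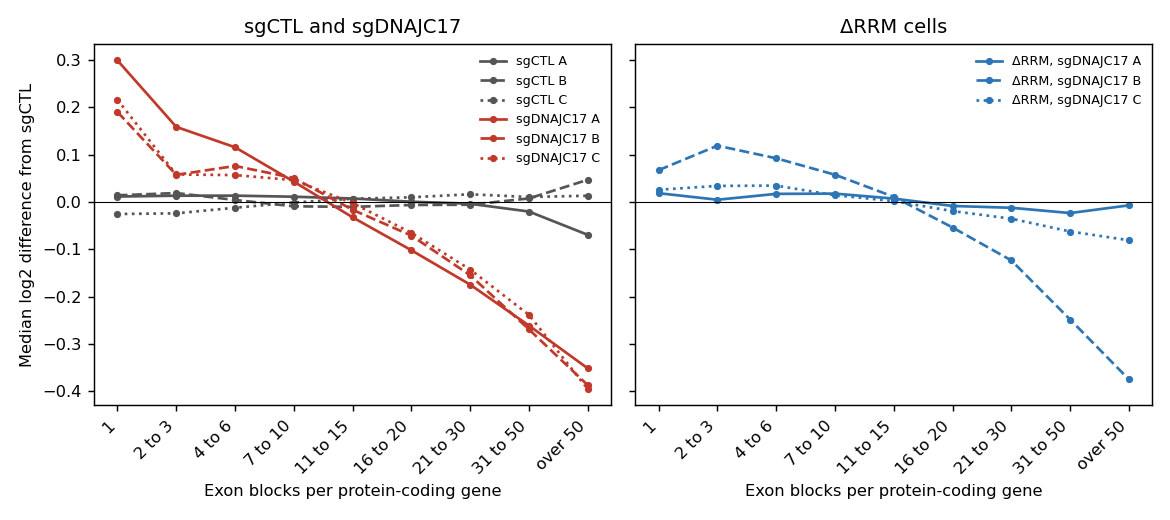
Median log2 difference of protein-coding genes from sgCTL by number of exon blocks, for each ES8 library. In the left panel, lines of the 3 sgDNAJC17 libraries fall from left to right and those of the sgCTL libraries, each set against the other two, stay near 0. In the right panel, ΔRRM replicates A and C stay near 0 and replicate B falls.

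The response of ES8 differed from that of Rh30 for 1848 of 18899 genes tested (9.78%) in an interaction of cell line with sgRNA. Among the mitochondrially encoded genes, the interaction was called for 9 of 13, and the median log2 change of the list stood at 0.60 in ES8 and 0.061 in Rh30. It was called for 10 of 25 ribosome biogenesis genes, with medians of -0.16 and 0.050, and for 6 of 25 cholesterol genes, with medians of -0.30 and -0.030. For homologous recombination and Fanconi anaemia it was 7 of 29, with medians of -0.32 and -0.036. Cytosolic ribosomal proteins had 1 of 84 called and medians of 0.34 and 0.34. *NOG* stood at 1.23 in ES8 and -0.14 in Rh30 (interaction adjusted p = 4.42e-06), and *UTP20* had -0.78 and -0.034 (interaction adjusted p = 0.000323). *PRPF3*, at 1.25 and 0.58, rose in both lines and more in ES8 (interaction adjusted p = 0.000531). *HSPA8*, at -0.30 and 0.42, and *HSPE1*, at -0.37 and 0.29, moved in opposite directions (interaction adjusted p = 0.00172 and 0.000287).

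**Figure D5:**
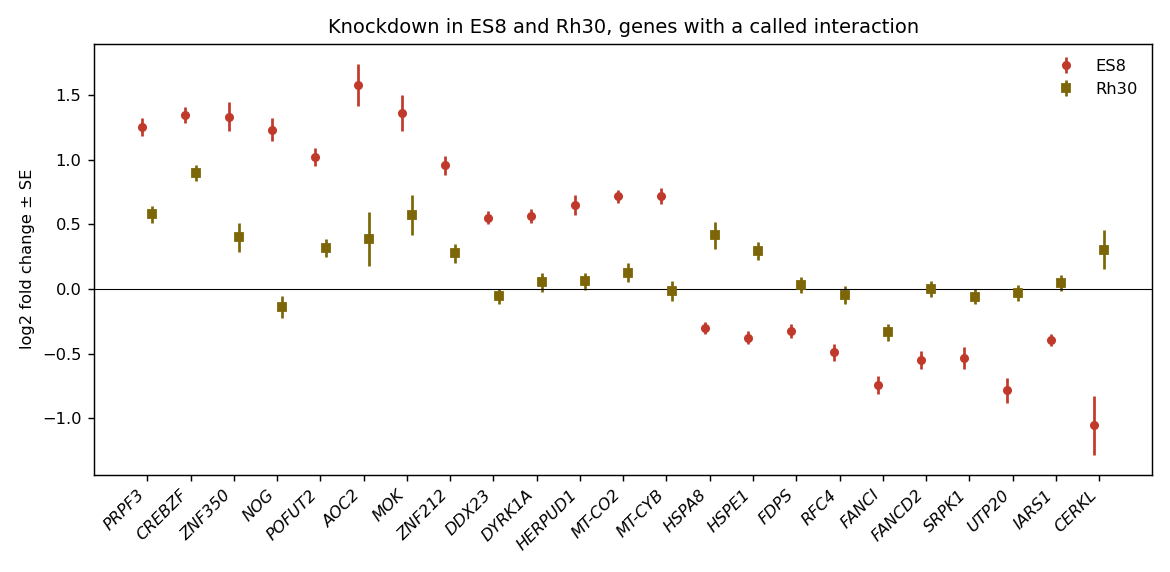
Log2 fold change of sgDNAJC17 against sgCTL in ES8 (red circles) and Rh30 (brown squares), with bars of 1 standard error from 3 libraries against 3, for 23 genes whose interaction passed an adjusted p under 0.05. The genes were picked for a called interaction, so a gap between the bars of the lines is no separate result. *NOG*, *HSPA8*, *HSPE1* and *CERKL* lie on opposite sides of 0. So do *DDX23*, *MT-CYB*, *FDPS*, *IARS1* and *FANCD2*, with Rh30 values near 0.

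Between ΔRRM cells and knockdown cells, which share the sgRNA, 2516 of 17099 genes (14.7%) differed. This comparison uses the same sgDNAJC17 libraries as the knockdown, so its values are set beside the others without a count of overlap. In ΔRRM cells against knockdown, 10 were higher and 0 lower among cholesterol genes, 0 were higher and 10 lower among mitochondrially encoded genes, and 11 were higher and 0 lower among S phase genes. *CREBZF* had a log2 difference of -1.28 (adjusted p = 4.49e-05), *PRPF3* of -1.12 (adjusted p = 6.30e-05), *POFUT2* of -0.89 (adjusted p = 0.000430) and *FANCI* of 0.74 (adjusted p = 0.000952). *PPP1R15A* had -0.83 (adjusted p = 0.000493), and *ZFYVE19* had 0.35 (adjusted p = 0.0743). No ΔRRM library with sgCTL was analysed here, so the allele and the cell population that carries it cannot be told apart.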

How the data were processed

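RNA-seq counts from 6 ES8 libraries were compared, with 3 ES8 ΔRRM and 6 parental Rh30 libraries for comparison. The authors deposited a table of raw read counts per gene for each library, without normalization, with exon coordinates. The submitters' processing notes name Trimmomatic 0.36, STAR 2.5.2b, featureCounts of Subread 1.5.2 and GRCh38. The paper's methods name an older build, but 85.3% of protein-coding starts lie no more than 1 kb from those of GRCh38, and 4.12% from those of GRCh37, and coordinates are given on GRCh38. Whether counting used strand is not given in the sources used here, so overlapping genes are uncertain. Symbols came from a GENCODE annotation by Ensembl identifier for 55082 genes, and 2418 had none. Library totals are given in the report, and precision falls with the counts of a gene.

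Genes passing filterByExpr went into edgeR 4.0.16 under R 4.3.3 (TMM, quasi-likelihood, Benjamini-Hochberg). Genes of lists were called at an adjusted p under 0.05, single genes also at a fold of at least 2. The interaction was fitted over the 12 parental libraries and ΔRRM against knockdown over those 6. Median differences by library used log2(CPM + 0.5). Alternatives were DESeq2 1.42.0, its size factors, no filter, at least 10 counts in every library, an adjusted p under 0.01, a lowess correction for GC content and length (span 0.3), the replicate letter as a block, all 9 ES8 libraries in the fit, and leaving out each library. The analysis by exon number was chosen after seeing the data. The ES8 test was tried on simulated counts with the same spread in every library and no shift with GC content. Its behaviour under the unequal spread of these groups was not tested.

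Named genes were *DNAJC17* and tested genes that start within 50 kb, protein-coding genes of at least 2-fold not shared with Rh30, without read-through genes, with a mean count of at least 100 and groups that did not overlap (the 12 largest folds and 8 smallest p-values in each direction), and, of each list, the defining genes and the 2 called genes of smallest p in each direction, of which the text gives a part, and some are not reported here. Members and lists were chosen with earlier results of these data known. Motif windows came from RefSeq promoter records. limma 3.58.1, Python 3.11.15, numpy 2.4.6, pandas 2.3.3 and matplotlib 3.10.9 were also used.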

Additional observations from a re-analysis of the deposited data

Results flagged for a closer look

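Of the genes named above that passed the test in ES8, 42 also passed the interaction of cell line with sgRNA at an adjusted p under 0.05 (edgeR, 3 libraries per group), so their response in ES8 differed from that in Rh30. Over all genes tested for it, 9.78% passed the interaction. Most named genes were chosen by their call in ES8, and those named by fold or p also for not being shared with Rh30. This choice favours a called interaction, so the count of 42 is no measure of how far the lines differ. Values are ES8 minus Rh30 on the log2 scale.

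*DNAJC17* itself was -0.68, as its fall was larger in ES8. Among single genes that rose in ES8, the differences were 1.34 for *NOG*, 1.17 for *AOC2*, 0.76 for *MOK*, 0.91 for *ZNF350*, 0.68 for *POFUT2*, 0.33 for *ZNF317*, 0.66 for *ZNF212*, 0.42 for *CREBZF*, 1.78 for *ENSG00000282936* and 0.69 for *H2BC21*. *CERKL* had -1.39 and *ZNF512B* had -2.09, the latter with too few counts in Rh30 for a test there.

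Among splicing genes, the differences were 0.65 for *PRPF3*, 0.58 for *DDX23*, 0.48 for *DYRK1A* and 0.28 for *HNRNPH2*, and those of the genes that fell in ES8 were -0.50 for *SRPK1* and -0.49 for *HNRNPA3*. Stress and signalling genes had 0.56 for *HERPUD1*, 0.57 for *TP53INP1*, 0.51 for *GABARAPL1* and 0.39 for *FOSL2*, while -0.69 for *HSPE1*, -0.74 for *HSPA8* and -0.38 for *PPP1R15A* were lower in ES8 than in Rh30. *HSPA1A* had 1.65, with log2 fold changes of 0.26 in ES8 and -1.42 in Rh30. Most of this difference was thus the fall in Rh30, and the ES8 call did not hold under several alternatives. *PPP1R15A* rose in both lines, and more in Rh30.

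Replication, repair and mitotic genes had -0.47 for *RFC4*, -0.43 for *FANCI*, -0.58 for *FANCD2* and -0.31 for *BUB1B*, with 0.31 for *PLK1*. Genes of mitochondria had 0.57 for *MT-CO2*, 0.71 for *MT-CYB* and 0.38 for *MRPL10*. Further genes that fell in ES8 had -0.78 for *UTP20*, -0.46 for *IARS1*, -0.55 for *PSMD11*, -0.43 for *ATP5MC1*, -0.38 for *FDPS* and -0.34 for *VEGFA*, and the interferon gene *OAS3* had -0.61.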

How the results depend on the processing

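Of the 131 named genes, none with a call turned its direction under any alternative, and 105 kept their side of the threshold under all of them. With the GC and length correction, 3837 genes rose and 3428 fell, 290 and 82 of them at least 2-fold, and with the block as well 3758 rose and 3364 fell. At an adjusted p under 0.01, 1257 rose and 1019 fell, 166 and 10 of them at least 2-fold and 62 and 7 of those protein coding. With at least 10 counts in every library, 158 rose and 17 fell at least 2-fold, 71 and 11 of them protein coding, and 4 were shared with Rh30, since fewer genes with few counts were tested. With no filter, 448 rose and 78 fell at least 2-fold. DESeq2 called 25 down at least 2-fold, 15 of them protein coding, and the cause was not tested.

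Leaving out 1 library gave 1331 to 3950 genes up and 1171 to 4044 down, 227 to 385 up and 26 to 97 down at least 2-fold, and 84 to 143 and 15 to 45 protein-coding genes up and down at least 2-fold. The highest of each came without sgDNAJC17 replicate A. The lowest came without sgCTL replicate C, or A equally for genes up at least 2-fold, and without sgCTL replicate B for both counts down at least 2-fold. The count shared with Rh30 was 10 to 16. The interaction count was 1009 to 2515, lowest without ES8 sgCTL replicate C and highest without Rh30 sgDNAJC17 replicate A, and that of ΔRRM against knockdown was 1070 to 3374, lowest without ΔRRM replicate C and highest without sgDNAJC17 replicate A. Lists were recomputed without replicate A and under the other settings, but not without each other library. The sign of the larger count turned with the GC and length correction for the heat shock (8 up and 6 down), NRF2 (4 up and 6 down), insulin-like growth factor (6 up and 2 down), histone (2 up and 3 down) and ubiquitin-specific protease (12 up and 11 down) lists, and with DESeq2 for interferon genes (3 up and 2 down). It also turned for heat shock genes with DESeq2 size factors and with at least 10 counts (5 up and 4 down each), for insulin-like growth factor genes with the block, no filter and all 9 libraries (3 up and 2 down, 4 up and 3 down, and 2 up and 1 down), and for histones with no filter and all 9 libraries (2 up and 3 down each). Without replicate A, it turned for heat shock, G2-M and NRF2 genes.

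Replicate letters did not pair the samples, since deviations of same-letter libraries from their group means correlated at -0.030, -0.092 and 0.083 across genes for A, B and C. With the letter as a block, 2033 genes rose, 2107 fell, 270 and 42 of them at least 2-fold, and 1353 differed between ΔRRM and knockdown.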
